A study of Homo sapiens and Mus musculus with 33 samples.

Results

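A bidirectional promoter is the short stretch between the starts of 2 neighbouring genes that are transcribed away from each other. In HCT116 cells, 763 of the 40266 ChIP-seq peaks of H3K18cr and H3K18ac were such promoters. Each was narrower than 10 kb and covered both starts of a gene pair in which a gene on the - strand began 0 to 1000 bp before a gene on the + strand. The table of 35805 genes held 1902 such pairs. Pairs with a gene name that begins with LINC or with certain clone prefixes, such as CTC or CTD, were left out. Other clone prefixes were not filtered, and 941 pairs remained. Of these, 779 had both starts in 1 peak under 10 kb, 17 in a wider peak, and 145 had no peak over both starts. The 779 pairs comprised 1542 genes, and 16 of the peaks held 2 pairs.

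The study asked how inhibition of class I histone deacetylases (HDACs) with MS275 changes H3K18cr and H3K18ac, the crotonylated and the acetylated form of lysine 18 of histone H3. HCT116, a human colon carcinoma cell line, was exposed for 18 h to 5 µM MS275 or to its solvent DMSO alone. ChIP-seq comprised 3 libraries of each mark and 1 input library (chromatin without antibody) for each treatment, and RNA-seq of poly(A) RNA comprised 4 libraries for each treatment. All ChIP chromatin, that of the DMSO cells included, was sheared in a buffer with sodium butyrate, itself an HDAC inhibitor. Reads in peaks ranged from 2236551 to 5730094 per ChIP library and were 1550122 and 1374609 in the inputs, and RNA-seq libraries held 35608533 to 53415604 counts. The epithelial markers EPCAM, CDH1, KRT8, KRT18, KRT19 and CDX2 were expressed in all 8 RNA-seq libraries, where CDX1 was listed at 0 and VIL1 was at or under 1.45 CPM, counts scaled to a common library size. Immune markers summed to at most 0.647 CPM and stromal or endothelial markers to 6.34 to 17.8 CPM, most of it COL1A1, against 3459 to 6042 CPM for the epithelial list.

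Genes paired head to head share a stretch of open chromatin from which RNA polymerase II starts in both directions, and many of them are housekeeping genes of DNA repair, metabolism, mitochondria and RNA processing. Such promoters usually lie in CpG islands, regions rich in the CG dinucleotide, and seldom have a TATA box. Crotonyl and acetyl groups on H3K18 are both placed by the acetyltransferases p300 and CBP, mark active gene starts, and are both removed by class I HDACs.

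The sequence between the starts is shown for 8 pairs to which the results below refer: 2 pairs known for a shared promoter, 1 of the 3 peaks with the highest H3K18cr, the peaks with the largest fall in H3K18cr and in H3K18ac, and 3 pairs whose RNA changed. All are the + strand of GRCh38, read 5′ to 3′, so that the gene on the - strand begins at the left end and runs leftwards. Capitals mark the 8 motifs searched on both strands, which are spelled out below the sequences.
PPAT/PAICS, chr4:56435616-56435740: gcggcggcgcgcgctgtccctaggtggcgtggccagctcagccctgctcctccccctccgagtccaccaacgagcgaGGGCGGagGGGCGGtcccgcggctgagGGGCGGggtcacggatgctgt
RECQL/GOLT1B, chr12:21501670-21501780: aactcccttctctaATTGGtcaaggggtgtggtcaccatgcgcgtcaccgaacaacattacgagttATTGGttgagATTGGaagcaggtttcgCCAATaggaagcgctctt
MAFG/MAFG-AS1, chr17:81927715-81927828: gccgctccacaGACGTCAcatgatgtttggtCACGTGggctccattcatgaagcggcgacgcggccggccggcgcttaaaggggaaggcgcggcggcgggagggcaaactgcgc
DHX32/FANK1, chr10:125896437-125896538: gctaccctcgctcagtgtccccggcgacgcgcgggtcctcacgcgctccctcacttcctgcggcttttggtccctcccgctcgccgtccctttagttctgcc
CETN2/NSDHL, chrX:152830778-152830966: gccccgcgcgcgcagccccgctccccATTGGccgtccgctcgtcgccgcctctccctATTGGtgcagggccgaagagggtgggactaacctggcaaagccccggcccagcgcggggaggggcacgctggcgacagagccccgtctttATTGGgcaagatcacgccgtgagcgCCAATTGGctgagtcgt
PCNA/CDS2, chr20:5126627-5126785: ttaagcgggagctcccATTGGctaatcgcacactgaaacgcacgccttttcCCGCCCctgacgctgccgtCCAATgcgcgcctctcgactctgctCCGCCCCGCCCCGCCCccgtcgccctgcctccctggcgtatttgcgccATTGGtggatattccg
PHB2/EMG1, chr12:6970826-6970892: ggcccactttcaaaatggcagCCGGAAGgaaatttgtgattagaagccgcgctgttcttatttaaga
PPAP2B/PRKAA2, chr1:56645302-56645321: gcagggcccgctgcactgtg

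The motifs were ETS (CCGGAAG), NRF1 (GCATGCG), SP1 (GGGCGG), the CCAAT box of NFY (CCAAT), YY1 (AAGATGG), CREB (TGACGTC), the E-box (CACGTG) and the TATA box (TATAAA), and a base could count for more than 1 of them. The stretch between PPAT and PAICS held 3 SP1 matches, that between PCNA and CDS2 held 4 SP1 matches and 3 CCAAT boxes, and that between CETN2 and NSDHL held 5 CCAAT boxes. RECQL/GOLT1B, with a GC content of 48.7% well under that of PPAT/PAICS with 76.0%, held 4 CCAAT boxes and nothing else. No motif of the list was found between DHX32 and FANK1 or in the 20 bp between PPAP2B and PRKAA2.

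Over all 779 pairs, GC-rich motifs were frequent and the TATA box was rare. In the 300 bp centred between the starts, the ETS motif was present in 25.5% of pairs, against 15.1% of equal windows centred on the start in the 6568 peaks over 1 gene start and 10.3% of the 35116 promoters of RefSeq (GRCh38, 250 bp before to 50 bp after the start). NRF1 was present in 11%, 5.53% and 3.91% of these windows, and SP1 in 75.9%, 70.3% and 45.0%. The CCAAT box was present in 39.3% of pairs, 32.2% of single starts and 34.6% of RefSeq promoters, and the E-box in 11.8%, 8.83% and 7.26%. YY1 was present in 9.50%, 6.50% and 5.84%, and CREB in 6.55%, 4.89% and 3.45%. The TATA box was present in 4.75% of pairs, nearly the 4.74% of single starts, against 11.5% of RefSeq promoters. Pairs and single starts were alike in GC content, with medians of 66.0% and 67.0%, and in the observed over expected number of CG dinucleotides, with medians of 0.88 and 0.84 (58.7% and 0.58 in RefSeq promoters). The window between 2 starts holds the stretch between them and, where the gap is under 300 bp, transcribed sequence of both genes. Such gaps were common, with 81.9% of pairs within 300 bp. The window on 1 start holds upstream sequence on 1 side and transcribed sequence on the other. The share of a motif is thus not measured over the same kind of sequence.

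**Figure D1:**
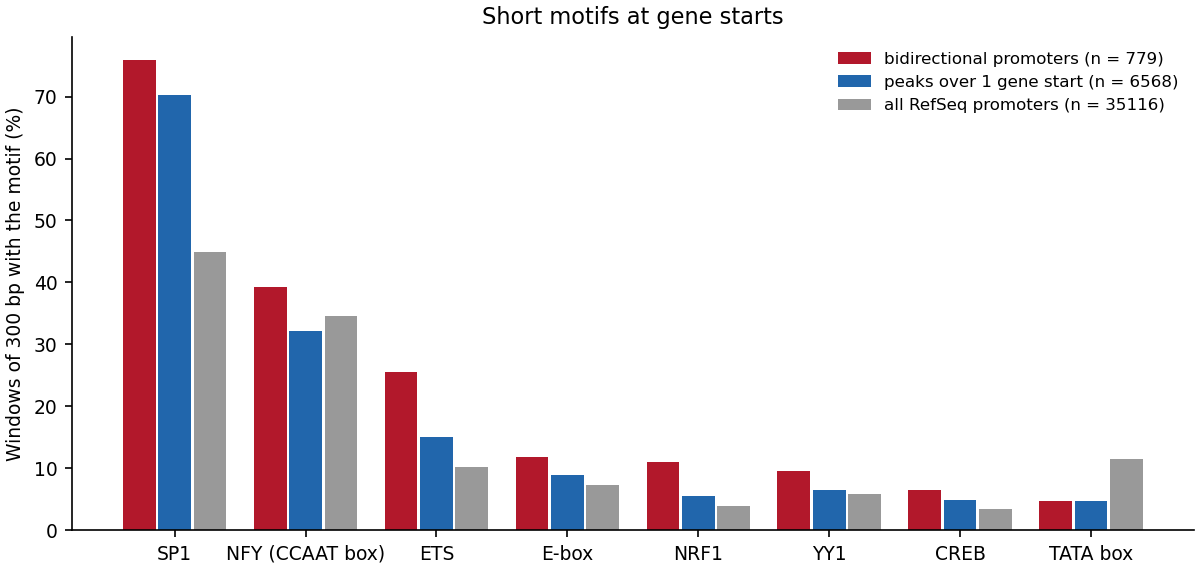
Share of 300-bp windows (%) that held each of 8 short motifs, for the 779 bidirectional promoter pairs, the 6568 peaks over 1 gene start and the 35116 RefSeq promoters. The ETS bar stood at 25.5% for the pairs against 15.1% and 10.3%, whereas the TATA box was at 4.75%, 4.74% and 11.5%.

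Most pairs were close together and were pairs of protein-coding genes. The gap between the starts was 115 bp in the median (quartiles 62 and 234 bp), and 638 pairs (81.9%) lay within 300 bp. Of the pairs, 599 joined 2 protein-coding genes (76.9%), 147 a protein-coding gene and a long noncoding RNA (lncRNA), and 33 were of another kind. Pairs with an ETS motif had a median gap of 78 bp against 131 bp for those without, and the 37 pairs with a TATA box had 271 bp against 112 bp. The peaks were 2850 bp wide in the median (600 to 9900 bp), compared with 2550 bp for peaks over 1 start and 1950 bp for all peaks. They reached 1336 bp past the - strand start and 1330 bp past the + strand start in the median, though single peaks could reach much further on 1 side. Together they covered 2430 kb, 2.19% of the length of all peaks, on 23 chromosomes, with the highest counts on chromosomes 1 (73 peaks) and 19 (52 peaks).

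The width limit cut through a continuous range. Just inside it, at 9900 bp, lay the peaks of SSSCA1-AS1/SSSCA1, FLJ42351/SLC20A1 and S100A10/NBPF18P, the last with 879, 861 and 862 scaled H3K18cr reads with DMSO. Just outside, at 10050 and 10200 bp, lay ZFYVE28/CFAP99 with 633, 636 and 616 and HES4/ISG15 with 1156, 1035 and 1573. At the limit of the gap, HSPBAP1/DIRC2 (971 bp) was inside and TNNC1/NISCH (1048 bp) outside. Pairs without a peak over both starts were weakly transcribed. In the 129 of these 145 pairs with gene lengths, the higher gene had a median of 0.591 RPKM (CPM per kb of exon, with DMSO) and the lower gene 0, compared with 10.2 and 1.39 RPKM in 751 pairs with a peak. Neither gene reached 1 RPKM in 53.5% of the pairs without a peak and in 5.46% of those with one.

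With DMSO both marks were denser over bidirectional promoters than over peaks with 1 start. As the rule asks for a peak, their level over input is no result, and only the difference between kinds of peaks is described. Values are the reads of a library scaled by the authors to the largest library. Median H3K18cr was 62.1 scaled reads per kb (25 to 162.6) over bidirectional promoters, 55.7 over peaks with 1 start and 31.2 over peaks without a gene start, where the DMSO input had 18.4, 18.0 and 16.5. H3K18ac was 70.9 (21.4 to 203.5), 58.4 and 29.8. In single libraries, median H3K18cr of the bidirectional promoters with DMSO was 66.4, 63.1 and 57.5 in replicates 1 to 3, against 60.7, 57.1 and 48.5 over peaks with 1 start. For H3K18ac it was 56.6, 65.8 and 90.4 against 46.8, 55.0 and 73.7, so the H3K18ac libraries differed more among themselves but kept the same ratio. The ratio was 1.13 ± 0.05 for H3K18cr and 1.21 ± 0.02 for H3K18ac (SD, n = 3), and 1.02 in the DMSO input. By width, median H3K18cr was 56.7 scaled reads per kb (bidirectional) and 54.1 (1 start) in peaks of 1.5 to 3 kb, 69.5 and 64.0 in those of 3 to 4.5 kb, and 69.8 and 62.5 in those of 4.5 to 10 kb. H3K18ac was 64.7 and 57.9, 79.1 and 67.6, and 75.5 and 60.8 in the same ranges, so the bidirectional promoters were the denser ones in each.

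**Figure D2:**
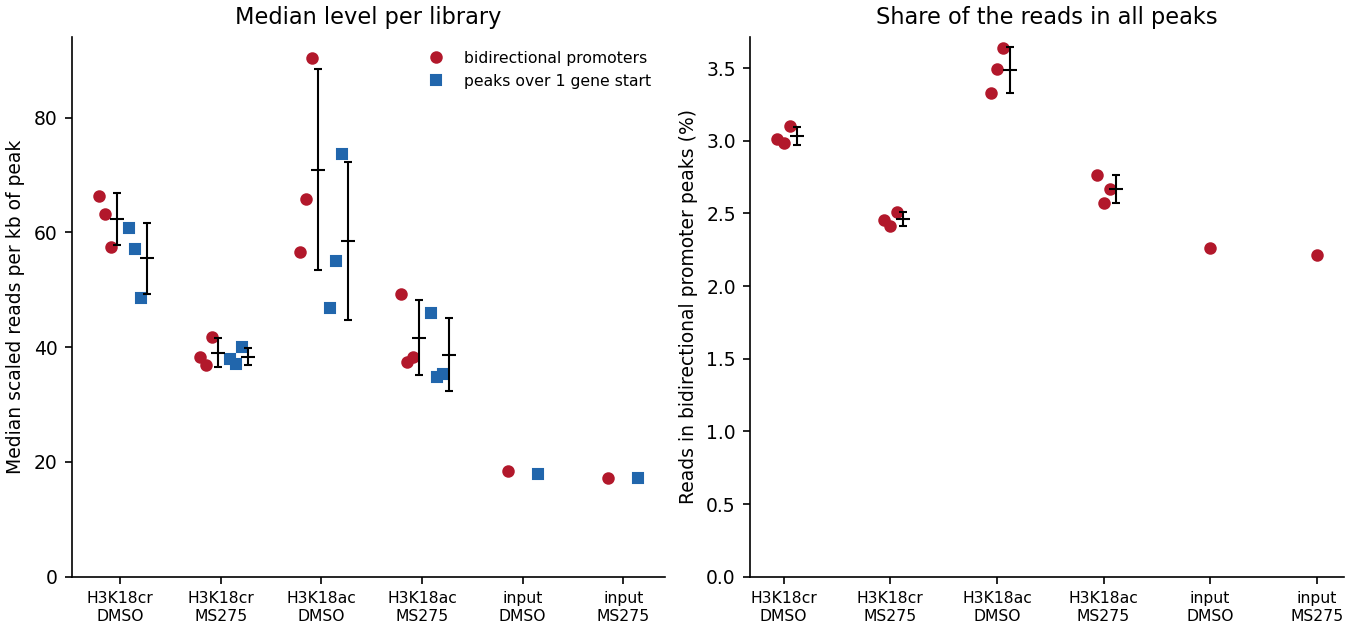
Left, median scaled reads per kb of peak in each ChIP-seq and input library for bidirectional promoters and for peaks over 1 gene start; right, percentage of all reads in peaks that fell in bidirectional promoter peaks, with 1 point per library and, in groups of 3, the mean with an error bar of 1 SD. The shares of the 6 DMSO ChIP libraries lay between 2.98 and 3.64%, above the 2.41 to 2.76% of the 6 MS275 libraries, and the inputs were at 2.26 and 2.21%.

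The highest H3K18cr per kb was found at MAFG/MAFG-AS1, STX10/IER2 and TBC1D16/CCDC40, with 163, 153 and 152 scaled reads per kb with DMSO. MAFG encodes a small Maf transcription factor, IER2 is an immediate early gene, and TBC1D16 encodes a Rab GTPase-activating protein. At MAFG/MAFG-AS1 the DMSO libraries held 684, 687 and 532 scaled H3K18cr reads and the MS275 libraries 377, 336 and 415. These groups did not overlap, and the peak fell by 0.75 ± 0.16 on the log2 scale (SE, limma, adjusted p = 0.000591).

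With MS275, the scaled H3K18cr reads fell at most bidirectional promoters. Of the 763 peaks, 592 were lower (77.6%; limma, adjusted p under 0.05) and none (0) was higher, where 23.7% of all 39011 peaks tested were lower and 0.238% higher (23.9% in either direction). Of peaks over 1 start, 56.8% were lower, and of peaks without a start 9.69%. The median log2 change was -0.69 (quartiles -0.84 and -0.51), against -0.55 over 1 start, -0.09 without a start and -0.21 over all peaks. In 630 peaks (82.6%) the 3 MS275 libraries were all below the 3 DMSO libraries, compared with 29.8% of all peaks. The change was above 0 in 5 peaks, at most 0.35 at EPB41L4A/EPB41L4A-AS2, and none of these passed the test. No external reference was added to the ChIP, so these values are shares of the reads of a library, and a change in the total amount of a mark could not be seen. By other methods, the paper reports more histone crotonylation in MS275-treated HCT116 cells (western blot). It also reports more H3K18cr over the promoters and repeats it measured by ChIP-qPCR, and it calls the ChIP-seq decrease over gene starts relative. Scaled by TMM over the peaks, the median of all peaks moved by 0.24 to 0.04, that of bidirectional promoters was -0.43, and 352 of them were lower and 1 higher, and the share of higher among all peaks called went from 1.00% to 15.0%.

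H3K18ac changed in the same direction, with a wider spread between libraries. Of the 763 peaks, 496 were lower (65.0%) and none (0) higher by limma, against 16.9% lower and 0.256% higher of the 39065 peaks tested. The median log2 change was -0.79 (-0.61 over 1 start, -0.08 without a start, -0.19 over all peaks), and the 3 MS275 libraries were all below the 3 DMSO libraries in 541 peaks (70.9%; 23.0% of all peaks). The count rested on single libraries. It was 252 without DMSO replicate 2, 325 without DMSO replicate 3, 131 without MS275 replicate 2 and 151 without MS275 replicate 3. With TMM the median was -0.53 with 503 peaks lower and 3 higher, and the share of higher among all peaks called went from 1.5% to 22.4%. Both marks were lower at 466 bidirectional promoters (61.1%), H3K18cr alone at 126, H3K18ac alone at 30 and neither at 141. The log2 changes of the marks correlated at r = 0.75 over the 763 peaks, which share width and treatment and are not independent replicates. A test for an unequal MS275 effect on H3K18cr and H3K18ac called 0 of 763 promoters (limma interaction; 4 at an unadjusted p under 0.05, where 689 of 39080 peaks had one).

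**Figure D3:**
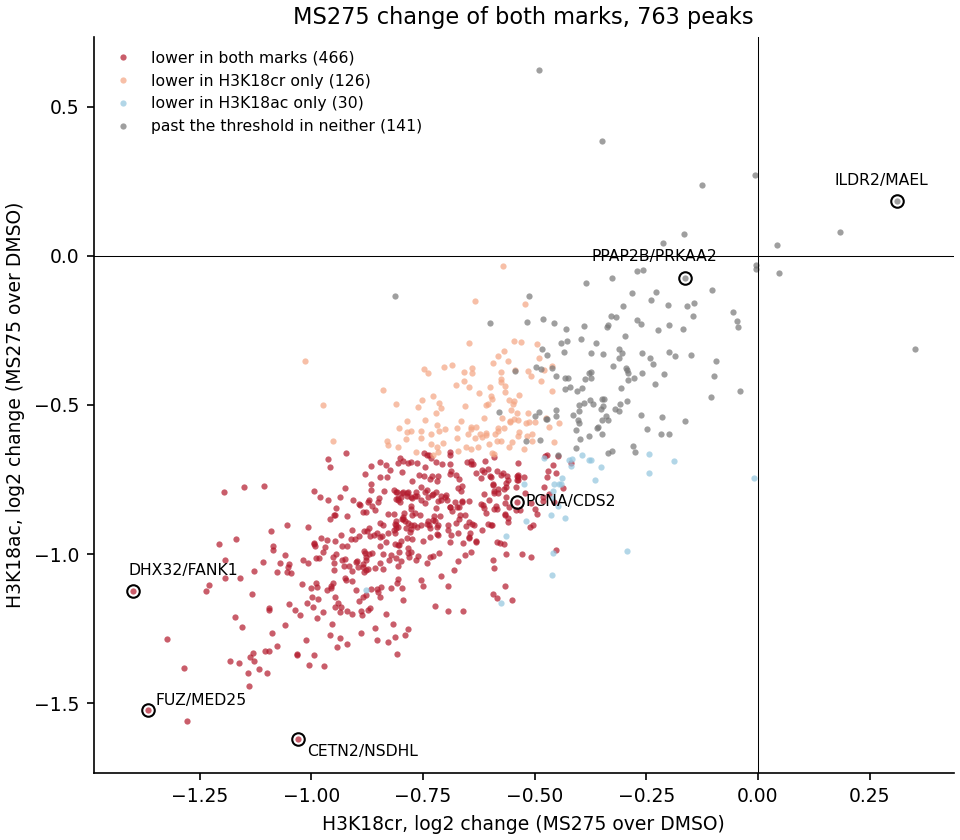
Log2 change with MS275 in H3K18cr (horizontal) and H3K18ac (vertical) for the 763 bidirectional promoter peaks, 1 point per peak, coloured by which marks passed the test. The cloud lies in the lower left, with medians of -0.69 and -0.79, and 466 peaks were lower in both marks.

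The fall was larger where the mark was denser. In the lowest of 3 equal ranges of H3K18cr with DMSO (under 54.9 scaled reads per kb) the median log2 change was -0.47 in H3K18cr and -0.53 in H3K18ac, in the middle range -0.68 and -0.78, and in the highest range (over 70.4) -0.86 and -0.98. The ranges were made from the same DMSO libraries as the H3K18cr change, so for that mark the gradient is a description. In H3K18ac, which was not used to make them, 31.1%, 70.2% and 93.7% of the promoters were lower. Peaks over 1 start in the same ranges of level had medians of -0.37, -0.70 and -0.92 in H3K18ac, with 18.9%, 54.8% and 85.7% lower. Bidirectional promoters thus stood below single starts in each range, by less than over all levels. Coding pairs and coding/lncRNA pairs had medians of -0.69 and -0.65 in H3K18cr and -0.80 and -0.69 in H3K18ac.

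Of all reads in peaks, the part in bidirectional promoters was lower with MS275 in every library. The share was 3.01, 2.98 and 3.10% for H3K18cr with DMSO and 2.45, 2.41 and 2.51% with MS275. For H3K18ac it was 3.33, 3.49 and 3.64% with DMSO and 2.76, 2.57 and 2.67% with MS275. The inputs, at 2.26 and 2.21%, were below all of these, and no ChIP library with MS275 overlapped one with DMSO. The ratio to peaks with 1 start fell from 1.13 ± 0.05 to 1.02 ± 0.02 in H3K18cr and from 1.21 ± 0.02 to 1.08 ± 0.007 in H3K18ac (SD, n = 3). Each of these 4 differences gave p = 0.1 in an exact permutation test (two-sided), the smallest p that 3 against 3 libraries can give, so none could pass 0.05.

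At a mean of 50 reads or more, the largest falls of H3K18cr included those at DHX32/FANK1, FUZ/MED25, TMEM258/FADS2 and RFX3/RFX3-AS1. At DHX32/FANK1 (chromosome 10, 125895451 to 125896650), which pairs a member of the RNA helicase family with a gene known from testis, the DMSO libraries held 97.0, 92.8 and 71.2 scaled H3K18cr reads and the MS275 libraries 33.7, 28.3 and 36.5. At FUZ/MED25 (chromosome 19, 49816201 to 49819500), a planar cell polarity gene and a subunit of the Mediator complex, H3K18cr went from 417, 449 and 519.7 to 164, 146 and 237. The groups did not overlap at either promoter, and the log2 changes were -1.40 ± 0.21 and -1.37 ± 0.17 (SE; limma, adjusted p = 4.05e-05 and 1.59e-05). TMEM258/FADS2, a subunit of the oligosaccharyltransferase and a fatty acid desaturase, changed by -1.32, and RFX3/RFX3-AS1, with a transcription factor of cilia genes, by -1.28. The largest fall of H3K18ac was at CETN2/NSDHL, and FUZ/MED25, with -1.52, was among the 3 largest. CETN2, a centrin of the centrosome, and NSDHL, an enzyme of cholesterol synthesis, had 81.5, 110.1 and 145 scaled H3K18ac reads with DMSO and 39.0, 29.7 and 38.8 with MS275 (log2 change -1.62 ± 0.25). The single inputs moved as well at some of these peaks, and their part in the falls was not tested. From DMSO to MS275 the input went from 41.7 to 34.0 scaled reads at DHX32/FANK1, where its DMSO level of 34.8 per kb lay above the median of 18.4. H3K18cr over input there, as log2, went from 1.04 to -0.05, so that with MS275 the peak was at the level of the input. At FUZ/MED25 it went from 76.9 to 39.6, so that H3K18cr over input went only from 2.57 to 2.17 and H3K18ac from 2.87 to 2.27. It went from 67.8 to 62.3 at TMEM258/FADS2, from 70.4 to 79.3 at RFX3/RFX3-AS1 and from 16.9 to 29.7 at CETN2/NSDHL.

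Of 18 gene pairs written down from general knowledge as sharing a promoter, 5 were members, and 4 of these were lower in both marks. PRKDC, the catalytic subunit of the DNA-dependent protein kinase, and MCM4, a subunit of the replicative helicase, start 2 bp apart. Their promoter had 360.0, 339.9 and 316 scaled H3K18cr reads with DMSO and 147, 177 and 185 with MS275. It changed by -1.0 ± 0.16 in H3K18cr and -1.11 ± 0.25 in H3K18ac (SE; limma, adjusted p = 6.2e-05 and 0.000469). PPAT and PAICS, which catalyse steps of purine synthesis, share a promoter that changed by -0.95 in H3K18cr and -1.05 in H3K18ac. RECQL, a DNA helicase, and GOLT1B, of Golgi transport, share 1 that changed by -0.69 and -0.96. In H3K18ac these calls rested on single libraries for both of the last pairs, since without MS275 replicate 2 those of PPAT/PAICS and RECQL/GOLT1B did not pass (limma, adjusted p = 0.0562 and 0.169), nor did PPAT/PAICS without MS275 replicate 3 (0.0596). The H3K18cr call of RECQL/GOLT1B was lost under TMM (limma, adjusted p = 0.0966). TK1/AFMID, the promoter of the thymidine kinase that supplies DNA precursors, was not past the threshold. Its H3K18cr was 314, 348 and 271 with DMSO and 251, 262 and 222 with MS275, with a log2 change of -0.34 ± 0.16 (limma, adjusted p = 0.13). Without DMSO replicate 3 it passed in H3K18cr (-0.44; limma, adjusted p = 0.0148), and without DMSO replicate 1 in H3K18ac (limma, adjusted p = 0.042).

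With DMSO, the median ratio of H3K18cr to H3K18ac was lower at bidirectional promoters than over all peaks. Each library was centred on its median over the peaks, since the antibodies differ in yield. The median log2 ratio of H3K18cr to H3K18ac was then -0.24, against -0.13 for peaks over 1 start and -0.04 over all peaks, and 35 bidirectional promoters were lower and 0 higher (4.59%; limma; 0.753% and 0.0359% of 39027 peaks, 0.789% in either direction). Of all reads in peaks, the part in these promoters was smaller for H3K18cr (2.98 to 3.10%) than for H3K18ac (3.33 to 3.64%) in every DMSO library (p = 0.1 in a two-sided exact permutation test, which cannot go lower here). The count of 35 rested on single libraries. It was 205 (198 lower and 7 higher) without H3K18cr DMSO replicate 3, 2 without H3K18cr DMSO replicate 1, 1 without H3K18ac DMSO replicate 1 and 0 without any 1 of the other 3. The lowest ratios, named after their values were seen, were at ALG2/SEC61B (-0.94), DDX51/NOC4L (-0.87) and DPM1/MOCS3 (-0.81), which encode proteins of glycosylation and protein translocation, of ribosome synthesis, and of glycosylation and molybdenum cofactor synthesis.

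The genes of a pair often differed in RNA level. Of the 751 pairs with both gene lengths, 421 (56.1%) had both genes at 1 RPKM or more with DMSO, 289 had 1 such gene and 41 had none. The genes of a pair differed by 2.43 on the log2 scale in the median, and 284 pairs (37.8%) differed by 10 or more (after 0.1 RPKM was added). Over these pairs, log2(RPKM + 1) of the - and + strand gene correlated at r = 0.05, and at 0.10 over the 598 coding pairs, where genes of 506 convergent neighbour pairs, which share no promoter, had r = 0.17. These genes share their libraries and are not independent replicates. In 145 coding/lncRNA pairs the coding gene had a median of 5.51 RPKM and the lncRNA 0.157, with the coding gene higher in 139. Median H3K18cr was 63.5 scaled reads per kb where both genes were at 1 RPKM or more, 62.0 with 1 such gene and 48.1 with none, and H3K18ac was 74.7, 67.9 and 51.5. Among pairs that differed by 10 or more, the peak reached further on the side of the higher gene in 213 of 282 with unequal reach (75.5%), with medians of 1518 and 1141 bp.

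The pairs with the most RNA from both genes were TRMT112/PRDX5, TCP1/MRPL18 and SRSF9/DYNLL1. TRMT112, an activator of methyltransferases, and PRDX5, a peroxiredoxin, had 189.5 ± 26.1 and 283 ± 58.3 RPKM with DMSO (SD, n = 4). TCP1, a subunit of the cytosolic chaperonin, and MRPL18, of the mitochondrial ribosome, had 139 ± 35.6 and 72.7 ± 12.7. The most unequal pairs were RAB34/RPL23A, FAM57B/ALDOA and EIF6/FAM83C-AS1. ALDOA, the glycolytic aldolase, had 367 ± 94.4 RPKM and FAM57B 0.129 ± 0.182, and EIF6, a factor of the large ribosomal subunit, had 109.5 ± 33.6 RPKM and FAM83C-AS1 no count (0) in all 8 libraries. RPL23A, of the ribosome, had 316 ± 45.1 RPKM, an uncertain value as many near-identical copies of this gene exist, and RAB34 had 4 counts in 1 of the 4 DMSO libraries. At all 3 promoters H3K18cr was lower with MS275, with log2 changes of -0.80, -0.83 and -0.79.

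RNA of few of these genes changed, and most calls depended on pairing the libraries by number. Of the 1542 genes, 1393 had enough counts. Without the number as a block, 0 of them passed (edgeR; 56 at an unadjusted p under 0.05, 4.02%, where 6.60% of all 14961 genes tested had one; 7 by DESeq2), and 0.00668% of all genes were higher. With the block, 65 genes were higher (4.67%, against 7.83% of all genes) and 114 lower (8.18%, against 6.55%), with a median log2 change of -0.05 and 0.01 over all genes. The count of 179 was 55, 62 and 59 without replicates 1, 2 and 4 and 227 without replicate 3. All RNA calls below are those of the fit with the block. Without it, none of the genes named below passed, and the lowest adjusted p was 0.229, for HPCAL4. The sources used here do not say whether strand was used in counting, so where a gene has an antisense partner the reads of both cannot be told apart.

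The changes of the genes of a pair had the same sign in most pairs. In 631 pairs with both genes tested, 382 (60.5%) had log2 changes of the same sign, and the changes correlated at r = 0.11. In 341 pairs of convergent neighbours 171 had the same sign (50.1%), with r = 0.11. Among pairs with both genes at a mean of 100 counts or more, r was 0.14 over 494 bidirectional pairs and -0.03 over 272 convergent ones, with the same sign in 60.7% and 48.5%. Of all genes, 51.0% had a change above 0. The genes of the bidirectional pairs lay lower, with a median log2 change of -0.05 against 0.01 over all genes. The part of this shift in the shared signs was not tested. Both genes passed the test in 10 pairs, of which 3 rose together, 6 fell together and 1 moved in opposite directions, and a single gene passed in 135 pairs, where its partner had the same sign in 79. Among the convergent neighbours both genes passed in 18 pairs, of which 3 rose together, 5 fell together and 10 were opposite.

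**Figure D4:**
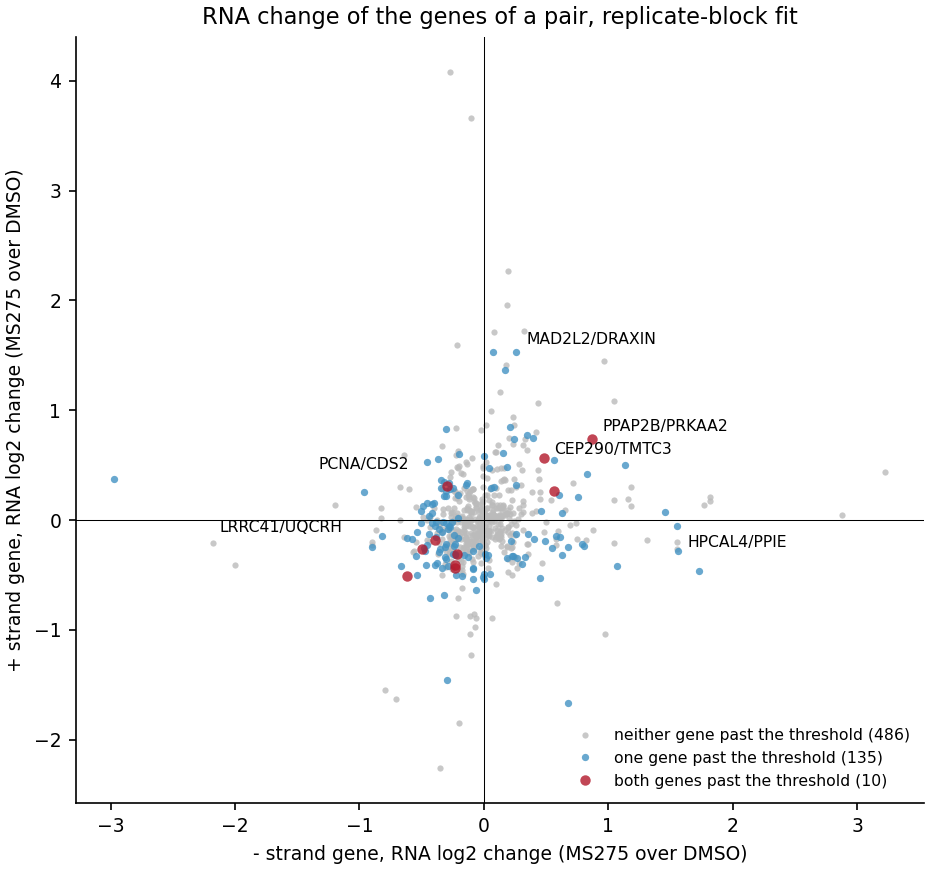
Log2 change of RNA with MS275 for the - strand gene (horizontal) and the + strand gene (vertical) of 631 pairs, from the edgeR fit blocked on replicate number, coloured by how many of the genes passed the test. Of the 10 pairs with both genes past the threshold, 3 lie at the upper right, 6 at the lower left and PCNA/CDS2 at the upper left.

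The 3 pairs that rose together were PPAP2B/PRKAA2, CEP290/TMTC3 and NEK1/CLCN3. PPAP2B, a lipid phosphate phosphatase, had 6.18, 5.91, 4.80 and 10.2 CPM with DMSO in replicates 1 to 4 and 10.1, 14.1, 9.12 and 15.5 with MS275. PRKAA2, a catalytic subunit of the AMP-activated kinase, had 9.33, 13.3, 7.29 and 16.9 and 21.0, 21.0, 13.0 and 20.9. Each replicate number was higher with MS275 for both genes, with groups that overlap, and the log2 changes were 0.87 ± 0.19 and 0.74 ± 0.16 (SE; edgeR with block, adjusted p = 0.0101 and 0.0109). Their promoter, with the 20 bp shown above between the starts, changed by -0.16 in H3K18cr and -0.07 in H3K18ac, and neither passed (limma, adjusted p = 0.651 and 0.913). CEP290, of the centrosome and cilia, and TMTC3, a mannosyltransferase, changed by 0.48 and 0.56, and NEK1, a kinase, and CLCN3, a chloride and proton exchanger, by 0.56 and 0.26. Both marks were lower at NEK1/CLCN3, while CEP290/TMTC3 had -0.47 in H3K18cr (limma, adjusted p = 0.0669).

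Of the 6 pairs that fell together, C12orf73/TDG fell most. TDG, the thymine DNA glycosylase of base excision repair, had 46.4, 29.6, 57.8 and 26.3 CPM with DMSO and 28.2, 16.6, 48.6 and 22.4 with MS275, lower in each number, and C12orf73, an assembly factor of respiratory complex III, had 10.3, 11.8, 14.0 and 9.40 and 8.22, 7.40, 7.94 and 5.97. The log2 changes were -0.51 ± 0.13 and -0.62 ± 0.18 (SE; edgeR with block, adjusted p = 0.0181 and 0.0403). PHB2, a prohibitin, and EMG1, a methyltransferase of ribosome synthesis, changed by -0.24 and -0.43, and POLDIP2 and TMEM199, of vacuolar ATPase assembly, by -0.23 and -0.41. POLDIP2 was lower in 4 of 4 numbers, with log2 changes of -0.28 to -0.19 when 1 number was left out of the paired fit, but its call was lost without number 1, 2 or 4 (edgeR with block, adjusted p = 0.151, 0.0716 and 0.274). Among the others, named after their values were seen, were TCP1/MRPL18 (-0.21 and -0.30) and PSPH/CCT6A (-0.39 and -0.18), each with a chaperonin subunit. In the pair that split, PCNA, the sliding clamp of DNA replication, had 483, 321, 305 and 269 CPM with DMSO and 385, 287, 225 and 226 with MS275, lower in 4 of 4 numbers. CDS2, which makes CDP-diacylglycerol for phospholipid synthesis, had 51.2, 76.6, 47.6 and 82.7 and 66.3, 89.6, 64.3 and 95.6, higher in 4 of 4. Their changes were -0.29 ± 0.06 and 0.31 ± 0.08 (SE; edgeR with block, adjusted p = 0.00949 and 0.0255), and the promoter itself was lower in both marks (-0.54 and -0.82).

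Next to the genes with the largest RNA changes past the threshold (at a mean of 100 counts or more), none of the 5 partners tested passed. HPCAL4, a neuronal calcium sensor, had 10.5, 14.6, 7.37 and 13.9 CPM with DMSO and 31.3, 42.6, 23.2 and 37.4 with MS275, with no overlap between groups. It rose by 1.55 ± 0.12 on the log2 scale (SE; edgeR with block, adjusted p = 4.95e-05), while PPIE, a cyclophilin of the spliceosome, had -0.05 ± 0.09. DRAXIN, an axon guidance gene, rose by 1.53 next to MAD2L2, a subunit of DNA polymerase zeta, with 0.26 ± 0.09 (adjusted p = 0.0823). RGL1, a Ral exchange factor, rose by 1.53 next to ARPC5, of the actin-nucleating Arp2/3 complex, with 0.08 ± 0.07. The largest falls among such genes were those of LRRC41 (-0.82), RNF214 (-0.68) and TMED1 (-0.68). LRRC41 had 45.9, 69.3, 55.7 and 79.3 CPM with DMSO and 22.2, 42, 33.7 and 46.2 with MS275, lower in each number, and its partner UQCRH, of respiratory complex III, had -0.15 ± 0.07 (adjusted p = 0.164).

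In the median, both marks fell less at the promoters of genes whose RNA rose than at those of genes whose RNA fell. The median log2 change of H3K18cr was -0.47 at the promoters of the 65 genes that rose, -0.69 at those of the 1214 genes that did not pass and -0.74 at those of the 114 that fell. In H3K18ac the medians were -0.51, -0.80 and -0.88. H3K18cr was lower at the promoter of 31 genes that rose (47.7%), 79.2% of those that did not pass and 103 that fell (90.4%), and H3K18ac at 35.4%, 67.2% and 79.8%. With DMSO these promoters had medians of 53.7, 62.3 and 67.7 scaled H3K18cr reads per kb, so the level moved with the same order, and its part in the difference was not tested. Over the 1393 genes, RNA and mark changes correlated at r = 0.19 for H3K18cr and 0.18 for H3K18ac, and the genes of a pair share 1 peak. A rise of more than 1 on the log2 scale was seen for 9 genes, among them HPCAL4, DRAXIN, RGL1, PTGS2 (cyclooxygenase), PRKCQ, SERPINI1, SYNJ1 and ILDR2, and their promoters had a median of -0.33 in H3K18cr, with 2 of 9 lower, and -0.37 in H3K18ac, with 0 of 9 lower. In the other direction, 14 promoters had changes above -0.2 in both marks. Of their 23 genes tested, 8 rose (HPCAL4, DRAXIN, PPAP2B, PRKAA2, ILDR2, TESC, SOX8 and GATA6) and 0 fell, where 7.83% of all genes were higher and 6.55% lower (genes named after their values were seen), and these peaks were narrow (median 2175 bp) with a median of 38.1 scaled H3K18cr reads per kb.

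**Figure D5:**
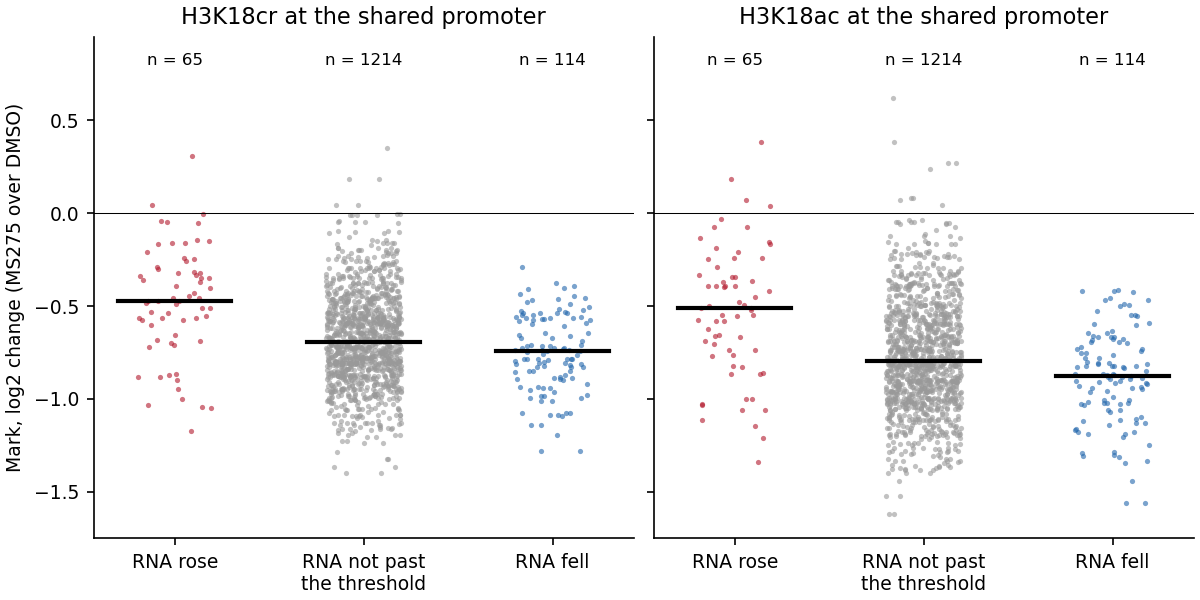
Log2 change with MS275 in H3K18cr (left) and H3K18ac (right) at the shared promoter, for genes grouped by their RNA in the edgeR fit with block: 65 rose, 1214 did not pass and 114 fell, with 1 point per gene and a line at each median. The medians step down from -0.47 to -0.69 and -0.74 in H3K18cr and from -0.51 to -0.80 and -0.88 in H3K18ac.

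Of 140 genes tested on 7 lists of housekeeping and zinc finger genes, 5 rose and 15 fell (14.3%), near the 14.4% of all genes and the 12.9% of the genes of these pairs that passed in either direction. The lists were matched by symbol or its first letters, so they are not complete, and TDG, UQCRH and C12orf73 are on none of them. Of the 30 listed genes of DNA replication and repair, 1 rose (PRKDC, 0.26) and 3 fell (PALB2, a partner of BRCA2, -0.50; PCNA; CDC45, of the replicative helicase, -0.52), with a median of -0.15, and 26 of their 29 promoters were lower in H3K18cr and 27 in H3K18ac. Of 15 mitochondrial ribosome genes 3 fell (MRPL18, MRPL27 and MRPL54), with a median of -0.26, and 14 of 14 promoters were lower in H3K18cr and 10 in H3K18ac. Of 18 listed genes of the respiratory chain and mitochondrial import, an antisense gene left out, 3 fell (NDUFB5, TIMM21 and NDUFA13), with 13 and 9 of 18 promoters lower. Among 14 genes of tRNA charging, translation initiation and RNA polymerases (1 antisense gene left out), POLR2A, the largest subunit of RNA polymerase II, rose by 0.30 and EIF3J, EIF3K and EIF6 fell, with 14 and 12 of 14 promoters lower. Of 30 genes tested whose symbols begin like those of zinc finger genes, antisense genes left out, 1 rose (ZNF516, 0.67) and 0 fell, with 17 and 16 of 26 promoters lower. They include ZBTB8OS, named for its place opposite a zinc finger gene. Of 20 genes of ubiquitin and proteasome tested, with 5 antisense genes left out, 2 rose (FBXO18 and FBXO3) and 3 fell (PSMA1, PSMA7 and USP5), with 17 and 11 of 20 promoters lower. Of 7 histone genes 0 passed, and 4 of 4 promoters were lower in both marks. Histone genes are near-identical and were measured in poly(A) RNA, so their counts are uncertain. The promoter counts include those of the antisense genes and stand against 77.6% and 65.0% of all bidirectional promoters, and the RNA counts against 4.67% and 8.18%.

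Part of these pairs is arranged in the same way in mouse. Of the 779 pairs, 437 had both symbols in the gene table of mouse colon epithelium, and 206 of these (47.1%) were divergent within 1000 bp there. Both starts lay in 1 H3K4me3 peak (trimethylated lysine 4 of histone H3, a mark of promoters) in 199 of the 206 (96.6%) and in 1 H3K18cr peak in 142 (68.9%). No share of other colon promoters stands beside these, so they do not set the pairs apart from other promoters. In neither kind of peak lay 5 pairs, Sirt6/Ankrd24, Tmtc3/Cep290, Rnf5/Agpat1, Urod/Hectd3 and Tas1r1/Nol9. Over the 199 peaks, H3K4me3 had medians of 87.4, 148 and 195 scaled reads per kb in its 3 libraries, against 49.8, 67.4 and 77.2 over all peaks, with 20.4 in the input. H3K18cr had 68.1 and 110.0 in its 2 libraries, against 60.1 and 91.9 over all peaks, with 27.2 and 35.0 in the inputs. Tables of the 2 species were normalized separately and are not compared in level.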

How the data were processed

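The authors trimmed reads (Trim Galore 0.4.2) and aligned them to GRCh38 (the labels name TopHat2 2.0.12 and Bowtie2 2.2.5, the methods HiSat2 in place of TopHat2), called 1 peak list over all libraries, and deposited raw counts per gene for RNA-seq. The deposited ChIP values were log2 of reads per peak scaled to the largest library, with 0.9 read for no read. Whole reads were recovered from these steps for all values (within 0.02 read, or 0.02% above 100 reads). The methods name 2 replicates of H3K18cr in HCT116 and the labels 3, all of which were used. The authors' signal over mouse colon peaks was log2 of scaled reads too. No spike-in was used, and the labels do not say that ChIP libraries came from separate cultures, so p-values measure the spread between these samples.

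The members and gene lists were chosen with earlier results of these data known. ChIP log2 values were tested with limma 3.58.1 (peaks with a mean of 10 reads or more), RNA counts with edgeR 4.0.16 (R 4.3.3, quasi-likelihood, TMM, filterByExpr), and p-values were adjusted by Benjamini-Hochberg over all features. DESeq2 1.42.0, TMM, other filters, windows, left-out libraries and the replicate number as a block were alternatives. RNA replicates of the same number deviated together (r = 0.226, 0.151, 0.433 and 0.460), so the numbers were taken as pairs, although DMSO 2 correlated more with MS275 4 (0.239). The fits were tested on simulated data with 200 features changed by 1.5 on the log2 scale and a dispersion of 0.02. For RNA, edgeR recovered 199 (198 with the block), and for H3K18cr limma recovered 199. Smaller changes and wider spreads were not simulated. RPKM used merged exons of GENCODE, which matched 21946 of 35805 genes by name.

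Named by rule were pairs known for a shared promoter, the peaks with the highest H3K18cr, the largest falls of either mark (mean of 50 reads or more), pairs with both genes called, the 3 largest RNA changes each way (mean of 100 counts or more), the pairs with the highest lower gene and the most unequal pairs. The rule also asked for the largest rises of the marks, of which there were 0. Some genes that these rules named are not reported here.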

Additional observations from a re-analysis of the deposited data

Results flagged for a closer look

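A library stood apart from the other 3 of its group (gap to the nearest over the range above Dixon's critical value of 0.829) in 5 of 119 groups of named genes screened, where chance gives about 1 in 20. All 5 are RNA values in CPM. With MS275, UQCRH was at 294 in replicate 3 and 206 to 211 in the others, PRKAA2 at 13.0 in replicate 3 and 20.9 to 21.0 in the others, and RECQL at 22.2 in replicate 3 and 38.6 to 38.9 in the others. NEK1 was at 23.3 in MS275 replicate 4 and 24.9 to 25.1 in the others. With DMSO, replicate 3 had 1.97 for FAM57B, against 0.0536 to 0.339. MS275 replicate 3 was the library that stood apart in 3 of the 5.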

How the results depend on the processing

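Fewer bidirectional promoters were called in H3K18cr with edgeR (360, of which 359 lower), TMM (353, of which 352 lower) or DESeq2 (276, all lower) than by limma (592, all lower), and 433 to 666 with 1 library left out. The H3K18ac count of 496 was 131 to 593 with 1 library left out. In H3K18cr, libraries of the same number deviated together weakly (r = 0.113, 0.0799 and 0.248), each the highest value for its DMSO library. For DMSO 2 the lead was small (0.0764 with MS275 1). In H3K18ac they did not (-0.206, 0.0548 and -0.134), and the main fits of both marks were unpaired. With the replicate block, 626 promoters were lower in H3K18cr and 74 in H3K18ac, and 0 differed in the ratio of the marks. That ratio gave 18 with TMM and 0 to 205 with 1 library left out. The median change of H3K18cr was -0.43 with TMM, -1.04 with input subtracted and -0.28 as a share of reads, and that of H3K18ac was -1.16 and -0.35 in the last of these. RNA calls without pairing were 0 with edgeR, 1 without the count filter and 7 with DESeq2. With the replicate block they were 179 with edgeR and 222 with DESeq2, and 55, 62, 227 and 59 with numbers 1 to 4 left out in turn. In windows of 200 bp, motif shares were 20.5% (ETS), 8.22% (NRF1), 66.8% (SP1), 34.0% (CCAAT box), 6.42% (YY1), 9.11% (E-box) and 3.34% (TATA box). POLDIP2, lower in 4 of 4 numbers, ranged from -0.47 to 0.0074 (log2) with 1 library left out of the unpaired fit, and turned direction only without DMSO replicate 3, which left its same-numbered MS275 library without a partner. The cause of these changes was not tested. Depth limits the weakest peaks and genes most, and with 3 against 3 libraries no exact test could pass 0.05.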
